A study of Mus musculus with 6 samples.

Results

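The genes of sphingolipid metabolism were examined for accessible chromatin in mouse haematopoietic stem cells (HSCs). The set held 38 enzymes, regulatory subunits and inhibitors, chosen by name from the pathway that makes, converts and breaks down ceramide. Peaks of 6 ATAC-seq libraries, an assay that marks open DNA by where a transposase can insert adapters, were merged wherever they overlapped by at least 1 bp. Of the 82993 regions so obtained on chromosomes 1 to 19, X and Y, 231 lay inside or within 20 kb of these genes, 141 of them inside a gene and 90 outside. A region counted as called in a library that had at least 1 peak in it. All genes but 1 had at least 1 region, the exception being Sgms2, and 31 of the 38 had a region that all 6 libraries called.

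HSCs had been sorted from the bone marrow of C57BL/6J wild-type mice as CD48-, CD150+ cells of the LSK gate (lineage-, Sca-1+, c-Kit+), with about 5000 cells per library. The DMSO group (3 libraries) came from mice given an intraperitoneal injection of the solvent. The Tunicamycin group (3 libraries) came from mice given Tunicamycin at 2 mg/kg by the same route. No allele or transgene set the groups apart, and the sources used here do not give the age or sex of the mice or the time between injection and sorting. Tunicamycin blocks N-linked glycosylation of proteins and is used to provoke stress in the endoplasmic reticulum (ER). The labels do not say whether the libraries of a group came from separate animals, so p-values reflect only how much these libraries vary, a spread that may be technical.

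Sphingolipids are built in the ER membrane from serine and a fatty acyl-CoA. The chain base so formed is acylated and desaturated to ceramide, which is carried to the Golgi for conversion to sphingomyelin or glucosylceramide. Breakdown runs back through ceramide to sphingosine, and phosphorylation of sphingosine gives sphingosine 1-phosphate, a signal that guides blood cells between marrow, blood and lymph. ORMDL proteins restrain the first enzyme when ceramide is plentiful.

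The peak lists held 28501 to 62478 peaks per library. Read depth is unknown from such lists, and a region without a call is not thereby shown to be closed. DMSO 1 had the longest list and called 77.1% of the 231 regions, and DMSO 3 had the shortest and called 38.1%. The other libraries called 51.1% to 69.7%. Over all 82993 regions the same libraries called 73.6% and 33.3%, and the others 44.5% to 67.2%, so each library called a slightly larger share of the sphingolipid regions than of all regions. As a check of the label, a region within 1 kb of a transcription start was called in all 6 libraries at 5 of 12 HSC marker genes (Hlf, Mecom, Kit, Meis1 and Mllt3), against 1 of 11 neutrophil and monocyte, 2 of 6 erythroid, 4 of 6 megakaryocyte, 2 of 7 lymphoid and 1 of 5 stroma and endothelium markers. The share for HSC markers, 41.7%, was below the 46.4% of all protein-coding genes, so calls at starts did not set these markers apart. Ly6a, which encodes Sca-1, had no call at its start, and Slamf1, which encodes CD150, had a call in 1 library.

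The start sequences of the genes at the extremes of the set are shown because start accessibility is what the results turn on. Each is the 250 bases before an annotated start, read 5′ to 3′ on the gene's strand, from RefSeq on GRCm38.p6, the assembly that mm10 denotes. Capitals mark matches, on either strand, to the motifs CCAAT and GGGCGG (or its reverse complement CCGCCC), and CCAAT reads ATTGG on the opposite strand. Ormdl2 (chr10:128821630-128821879, minus strand) and Ormdl1 (chr1:53296845-53297094, plus strand) had the highest-ranked start peaks. Cerk (chr15:86186142-86186391, minus) and Ugcg (chr4:59189300-59189549, plus) had the lowest-ranked among starts called in all libraries. Sptlc3 (chr2:139493663-139493912, plus) and Cers3 (chr7:66743254-66743503, plus) are 2 of the 7 genes with no call at a start, Asah1 being judged at its gene ends. Ism2 (chr12:87299706-87299955, minus) is not a sphingolipid gene, but its start lies in a region near Sptlc2 that was called only after Tunicamycin.
Ormdl2: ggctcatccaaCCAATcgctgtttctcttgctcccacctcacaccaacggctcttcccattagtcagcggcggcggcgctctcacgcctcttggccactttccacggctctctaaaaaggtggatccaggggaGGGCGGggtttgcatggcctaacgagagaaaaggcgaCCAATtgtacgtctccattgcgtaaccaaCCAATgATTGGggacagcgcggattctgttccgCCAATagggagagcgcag
Ormdl1: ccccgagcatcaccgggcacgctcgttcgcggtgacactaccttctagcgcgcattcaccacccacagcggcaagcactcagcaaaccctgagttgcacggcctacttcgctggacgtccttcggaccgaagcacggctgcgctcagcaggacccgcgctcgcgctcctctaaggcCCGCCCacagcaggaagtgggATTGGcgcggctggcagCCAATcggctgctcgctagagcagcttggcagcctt
Cerk: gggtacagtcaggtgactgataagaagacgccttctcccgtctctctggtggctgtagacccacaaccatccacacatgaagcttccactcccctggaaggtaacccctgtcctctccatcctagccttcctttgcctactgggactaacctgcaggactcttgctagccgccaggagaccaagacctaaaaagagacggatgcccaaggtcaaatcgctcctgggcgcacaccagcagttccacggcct
Ugcg: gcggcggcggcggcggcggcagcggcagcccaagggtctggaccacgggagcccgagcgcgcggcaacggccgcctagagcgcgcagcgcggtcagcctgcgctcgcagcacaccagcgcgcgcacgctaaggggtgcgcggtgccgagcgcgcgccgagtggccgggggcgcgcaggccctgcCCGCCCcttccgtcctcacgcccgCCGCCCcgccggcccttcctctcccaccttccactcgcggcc
Sptlc3: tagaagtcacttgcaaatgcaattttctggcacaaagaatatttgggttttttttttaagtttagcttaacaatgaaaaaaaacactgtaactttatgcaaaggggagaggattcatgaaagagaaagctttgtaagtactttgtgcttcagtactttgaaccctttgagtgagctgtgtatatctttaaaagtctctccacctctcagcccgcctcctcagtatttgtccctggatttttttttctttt
Cers3: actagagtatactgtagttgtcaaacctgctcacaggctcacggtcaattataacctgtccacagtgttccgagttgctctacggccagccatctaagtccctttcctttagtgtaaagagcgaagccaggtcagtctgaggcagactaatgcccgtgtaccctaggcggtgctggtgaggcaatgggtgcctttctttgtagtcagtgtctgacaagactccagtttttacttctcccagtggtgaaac
Ism2: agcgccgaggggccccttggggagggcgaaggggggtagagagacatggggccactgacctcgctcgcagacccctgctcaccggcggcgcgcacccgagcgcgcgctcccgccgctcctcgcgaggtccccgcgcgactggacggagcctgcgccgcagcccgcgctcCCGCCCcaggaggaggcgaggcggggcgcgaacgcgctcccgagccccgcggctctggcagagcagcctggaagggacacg

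Most sphingolipid genes were accessible at a start in both groups. A region within 1 kb of a start was called in all 6 libraries at 24 of the 38 genes (63.2%), and the same held for 10160 of 21887 protein-coding genes (46.4%). The 3 DMSO libraries all called such a region at 24 genes and the 3 Tunicamycin libraries at 27, the additional genes being Sptssb, Smpd4 and Sgpp1. Over all protein-coding genes the share was likewise higher for Tunicamycin, 53.6% against 46.8%. In single libraries, 31, 26 and 26 of the 38 genes had a call at a start in DMSO 1, 2 and 3 and 27, 29 and 29 in Tunicamycin 1, 2 and 3. The shares of all protein-coding genes were 61.6%, 53.8% and 48% in DMSO and 56.8%, 58.8% and 57.6% in Tunicamycin. The counts for the 38 genes overlapped between the groups, with DMSO 1 highest. Genes for synthesis were called at a start in all libraries in 15 of 22 cases (68.2%) and genes for breakdown and sphingosine 1-phosphate in 9 of 16 (56.2%). For Asah1 and Smpd3, which have no entry in the table of starts, either end of the gene was used. Both are breakdown genes, and by this rule Smpd3 counted as called and Asah1 as not called.

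Peak height was described by the fold enrichment that the authors' peak caller gave each peak, turned into a percentile among all peaks of the same library. Lists of different length cannot be compared on this scale, so it ranks regions within a library. For the 24 genes called at a start in all libraries, the median over libraries of this percentile had a median of 88.8 and ran from 4.2 (Cerk) to 99.5 (Ormdl2). The 10160 genes of the whole genome had a median of 84.1, with quartiles of 70.0 and 92.9. The plot gives these percentiles by gene and library, and differences between libraries in it can also reflect the length of the lists. At Sptlc2 the percentiles lay between 96.6 and 99.3, and at Sptlc1 between 56.9 and 97.8.

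**Figure D1:**
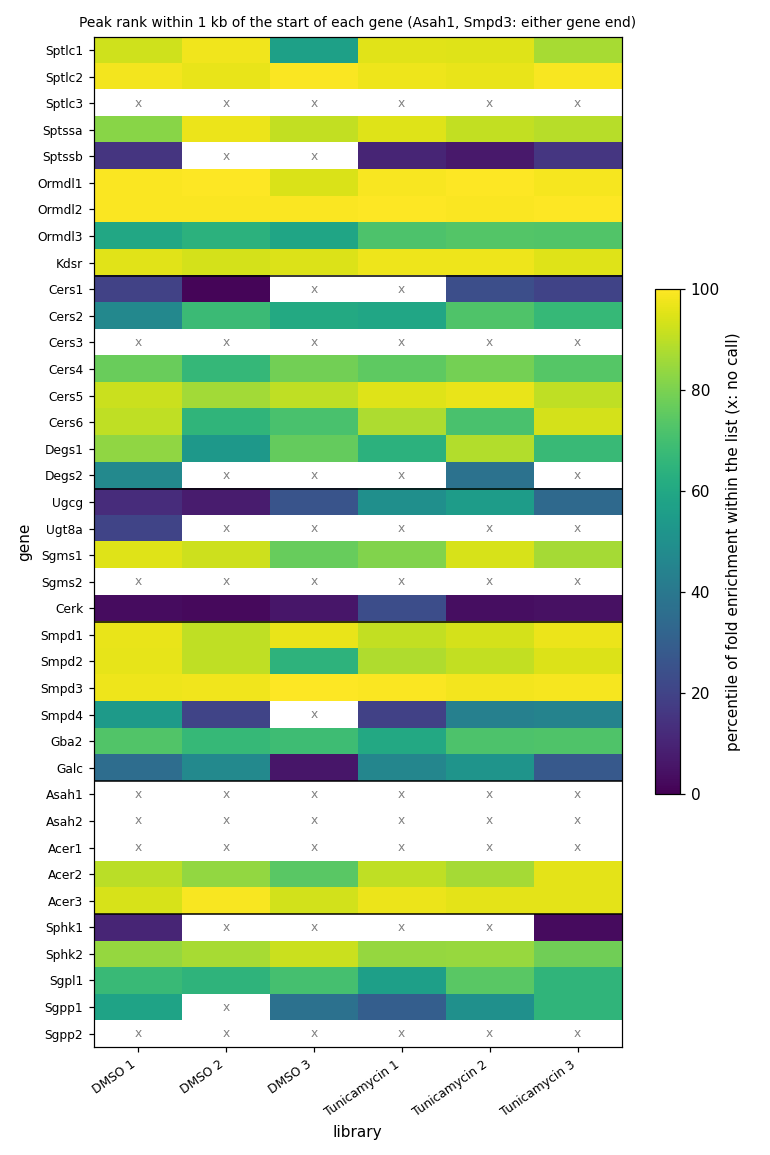
Heat map of the percentile of peak fold enrichment among all peaks of the library (colour, 0 to 100) within 1 kb of the start of each of the 38 genes (rows, black lines between the roles) in the 6 libraries (columns), with an x where no peak was called. Ormdl2 and Ormdl1 stand at 94.3 or higher in every library, Cerk at 23.6 or lower, and 7 genes carry no call. For Asah1 and Smpd3 either gene end stands in for the start.

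Of the synthesis roles, the first steps had the largest share of genes called at a start in all libraries, 7 of 9. Sptlc1 and Sptlc2 encode the catalytic core of serine palmitoyltransferase, the rate-limiting enzyme. The Sptlc2 start (chr12:87387865-87388793) stood at percentiles of 98.1, 96.7 and 99.3 in DMSO 1, 2 and 3 and 97.5, 96.6 and 99.1 in Tunicamycin 1, 2 and 3. At Sptlc1 (chr13:53376909-53377699) the values were 92.7, 97.8 and 56.9 in DMSO and 95.6, 95.0 and 86.9 in Tunicamycin. The groups overlapped at both genes, and DMSO 3 was the low library at Sptlc1. Sptlc3, an alternative catalytic subunit with a narrower tissue range, had no call at its start and 2 regions, each called in 1 Tunicamycin library and 96.1 and 97.5 kb from the start.

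The small activating subunits and the ORMDL inhibitors differed among themselves. Sptssa had a start region in all libraries (82.3, 97.2 and 91.0 in DMSO, 95.3, 90.7 and 89.1 in Tunicamycin), whereas the region at the start of its paralog Sptssb was called in DMSO 1 and the 3 Tunicamycin libraries at percentiles of 6.7 to 15.9. A second region near that start was called in DMSO 3 alone. A further region 1.07 kb from the start (chr3:69860962-69861593) covers an end of the gene span. It was called at 5.7 in DMSO 1 and 51.9, 27.6 and 30.0 in Tunicamycin 1, 2 and 3. Ormdl2 (chr10:128821310-128822098) had the highest start of all 38 genes, at 99.5, 99.3 and 99.5 in DMSO and 99.9, 99.5 and 99.9 in Tunicamycin, with fold enrichments of 13.1 to 16.9. Ormdl1 (chr1:53296673-53297505) stood at 99.6, 99.7 and 94.3 in DMSO and 99.0, 99.7 and 98.8 in Tunicamycin. Both regions also lie within 1 kb of the start of a neighbour, Sarnp beside Ormdl2 and Pms1 beside Ormdl1, so the peaks cannot be assigned to 1 gene. For neighbours without a listed start, either gene end stood in for it. Starts of neighbours are named below by the same rule. Ormdl3 ranked lower, at 59.9, 64.1 and 58.9 in DMSO and 71.9, 73.4 and 72.8 in Tunicamycin. The groups are separate on this scale, but they overlapped at this region when all libraries were ranked over the same regions, as given further on. Kdsr, the reductase that acts on the product of serine palmitoyltransferase, stood between 93.4 and 97.6 in every library.

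Of the ceramide synthases, which attach acyl chains of different length to the chain base, Cers2, Cers4, Cers5 and Cers6 were called at a start in all 6 libraries. Cers5 ranked highest (92.0, 86.0 and 90.4 in DMSO, 95.2, 96.5 and 90.5 in Tunicamycin), and Cers2, the synthase of very long chains, lowest of these 4 (46.7, 68.2 and 60.8 in DMSO, 59.3, 72.6 and 66.9 in Tunicamycin). The Cers2 region also lies within 1 kb of the start of Anxa9. Cers4 ran from 66.7 to 79.2 and Cers6 from 65.3 to 93.5, with overlapping groups. Cers1, known for its role in neurons and muscle, was called at its start in 4 libraries at percentiles of 1.3 to 24.2. That region also lies within 1 kb of the start of Gdf1. Cers3, the synthase of skin and testis, had no call at its start, but 1 region inside the gene, 60.2 kb from the start, was called in 5 libraries at 65.6 to 99.8. Degs1, the desaturase that completes ceramide, was called at its start in all libraries at 53.2 to 88.3. Degs2, which makes phytoceramide, was called within 1 kb of its start in DMSO 1 and Tunicamycin 2 alone.

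The genes that convert ceramide to complex lipids held both the lowest-ranked starts and the locus with the most regions. Cerk, ceramide kinase, was called at its start (chr15:86185660-86186335) in every library, at percentiles of 3.3, 2.5 and 6.1 in DMSO and 23.6, 3.9 and 4.5 in Tunicamycin. The higher-ranked regions of Cerk lay away from the start. A region 16.3 kb from it (chr15:86202454-86203259) stood at 82.8, 89.8 and 84.4 in DMSO and 75.7, 85.9 and 92.6 in Tunicamycin, and 6 of its 12 regions were called in all libraries. Ugcg, which makes glucosylceramide, stood at 12.7, 7.5 and 26.0 in DMSO and 49.8, 55.2 and 34.1 in Tunicamycin at its start (chr4:59188537-59190237). These within-library percentiles did not overlap between the groups, but the groups overlapped when all libraries were ranked over the same regions, as the comparison of heights further on shows. Ugt8a, the galactosylceramide synthase of myelin, was called at its start in DMSO 1 alone. Sgms2, the sphingomyelin synthase of the plasma membrane, had no region in the gene or within 20 kb of it in any library, although RefSeq lists 6 starts for it.

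**Figure D2:**
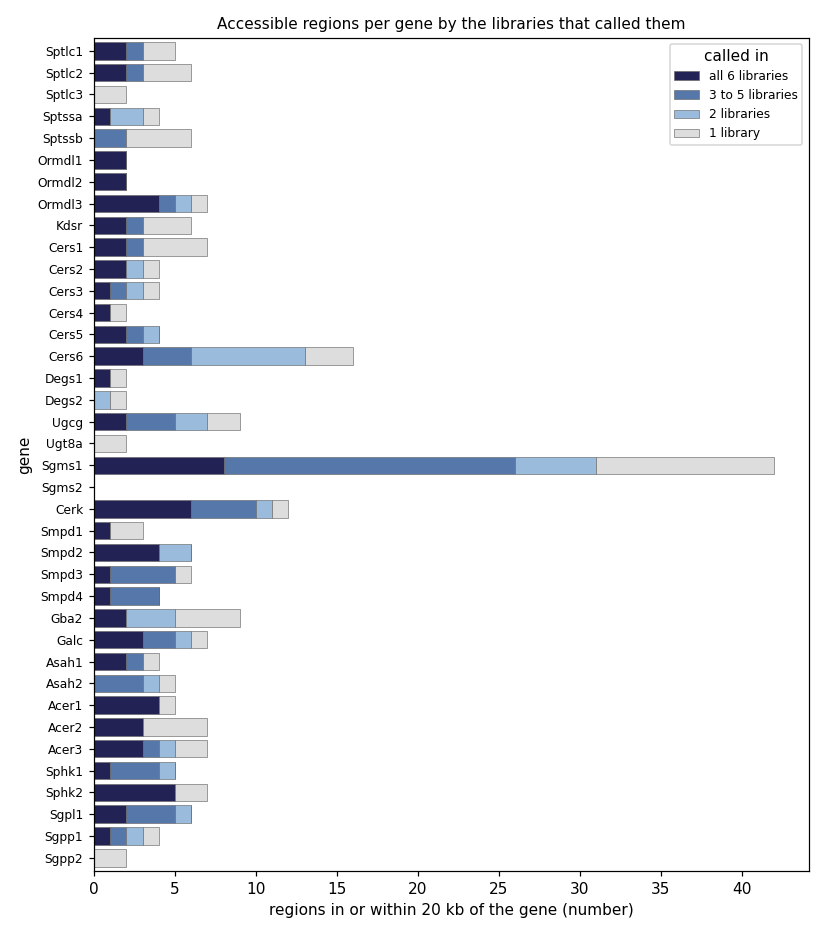
Number of regions in or within 20 kb of each of the 38 genes (horizontal axis), each bar stacked by how many of the 6 libraries called the region. Sgms1 has 42 regions, Cers6 16 and Cerk 12, and Sgms2 has 0.

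Sgms1, the sphingomyelin synthase of the Golgi, had 42 regions, more than 99.9% of protein-coding genes. The gene is long (267 kb), and its 13.7 regions per 100 kb exceeded the density of 88% of genes. The median was 5 regions (6.31 per 100 kb) for the 38 genes and 4 (5.74 per 100 kb) for all genes. All 6 libraries called 8 of the 42, and 7 more were called in 5 libraries, DMSO 3 being the missing library in 6 of those 7. By library, 32, 20 and 11 of the 42 were called in DMSO and 26, 29 and 27 in Tunicamycin, in the same order as the length of the lists.

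RefSeq gives Sgms1 4 starts, and they differed in rank. The most downstream start (chr19:32210171-32211265) stood at 95.1, 92.5 and 76.7 in DMSO and 81.0, 94.0 and 86.6 in Tunicamycin. The region at the upstream pair of starts (chr19:32388325-32389661) stood at 42.9, 22.2 and 5.6 in DMSO and 38.0, 51.3 and 57.0 in Tunicamycin. The start between them had no call within 1 kb. Other regions within 1 kb of the upstream pair were called in 1 Tunicamycin library each. Inside the gene, 37.9 kb downstream of the most downstream start, chr19:32172263-32173075 ranked as high as that start, at 89.5, 96.1 and 89.2 in DMSO and 91.2, 93.1 and 92.8 in Tunicamycin. The 2 regions between Sgms1 and Asah2 fall within 20 kb of both genes and are counted once.

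**Figure D3:**
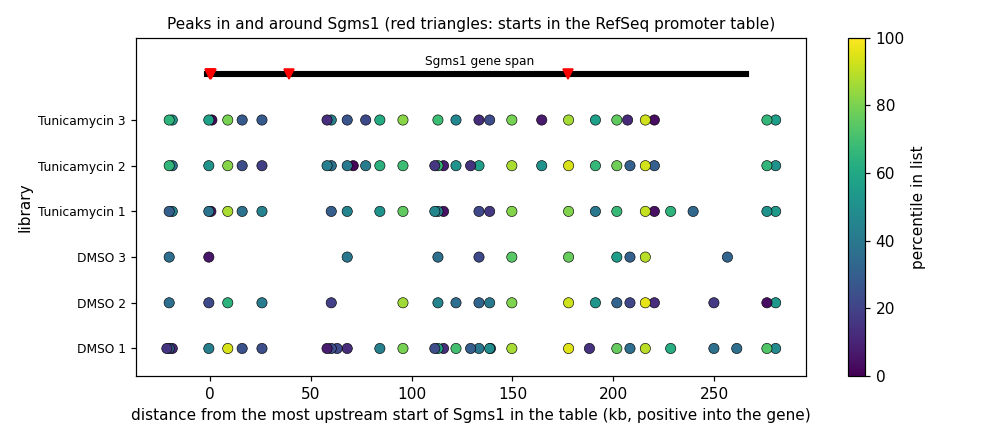
Regions of the Sgms1 locus by distance from the most upstream start (horizontal axis, kb), with a row for each library, points where the library called a peak, coloured by percentile in the list, and red triangles at the 4 annotated starts (the upstream pair coincide at this scale). Of the 8 regions shared by all libraries, 2 lie at or upstream of the upstream starts and 6 in the downstream part of the gene, and DMSO 3 has the fewest marks, 11.

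Among the sphingomyelinases and glycosidases, 5 of 6 genes were called at a start or gene end in all libraries. Smpd1, the acid sphingomyelinase of lysosomes, stood at 96.5, 90.4 and 96.8 in DMSO and 90.8, 93.5 and 97.1 in Tunicamycin (chr7:105554030-105554916). Smpd2, a neutral sphingomyelinase, ran from 64.8 in DMSO 3 to 96.3 in DMSO 1 in a region shared with the start of Ppil6. Smpd3, the neutral sphingomyelinase linked to exosome release, had at 1 gene end (chr8:106337739-106338413) percentiles of 97.5, 98.0 and 99.7 in DMSO and 99.4, 98.4 and 98.6 in Tunicamycin. Smpd4 was called at its start in 5 libraries, DMSO 3 being without a call, at 19.2 to 54.4. Gba2, the glucosylceramidase that acts outside lysosomes, stood between 60.5 and 72.7 in a region shared with Rgp1. Galc, the lysosomal galactosylceramidase, stood at 35.9, 46.9 and 6.0 in DMSO and 46.0, 51.6 and 27.8 in Tunicamycin. The groups overlapped at each of these starts called in all libraries.

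Of the ceramidases, which release sphingosine from ceramide, 2 were open at a start and 3 had no call there, Asah1 being judged at its gene ends. Acer3 (chr7:98308944-98310045) stood at 94.0, 99.2 and 93.1 in DMSO and 97.1, 95.9 and 95.9 in Tunicamycin, and Acer2, the Golgi enzyme, at 89.5, 83.9 and 74.5 in DMSO and 90.6, 86.5 and 95.9 in Tunicamycin. Asah1, the acid ceramidase, has no listed start and had no call at either gene end. An internal region 22.5 kb from the nearer end (chr8:41373829-41375190) was among the highest-ranked of the set, at 91.8, 96.0 and 87.0 in DMSO and 95.1, 94.9 and 97.8 in Tunicamycin. Whether this region holds the Asah1 start was not tested. Asah2, the neutral ceramidase, had no region inside the gene. Acer1, the alkaline ceramidase of skin, had no call at its start, and the 3 high-ranked regions next to it lie within 1 kb of starts of Mllt1, Clpp and Alkbh7. An internal Acer1 region 23.5 kb from the start stood between 75.2 and 94.8. Of the 10 highest-ranked regions of the whole set, 6 were starts of Ormdl2, Ormdl1, Sptlc2, Acer3, Kdsr and Smpd1, 1 was the Smpd3 gene end and 3 were these neighbours of Acer1.

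For sphingosine 1-phosphate, the kinases contrasted. Sphk2, the nuclear and mitochondrial kinase, had regions at both annotated starts in all libraries, the higher (chr7:45714941-45715612) at 84.2, 87.0 and 92.1 in DMSO and 84.1, 84.7 and 78.3 in Tunicamycin. The lower, shared with the start of Rpl18, stood at 30.1 to 51.6. Sphk1, the cytoplasmic kinase, was called within 1 kb of any of its 5 starts in DMSO 1 and Tunicamycin 3 alone, at 10.3 and 3.1. A region 1.48 kb from a Sphk1 start was called in 5 libraries at 12.2 to 53.9. Sgpl1, the lyase that degrades sphingosine 1-phosphate irreversibly, stood between 56.4 and 74.6 at its start in every library. The phosphatase Sgpp1 was called at its start in 5 libraries, with DMSO 2 missing, at 29.8 to 65.3. Its paralog Sgpp2 had no call at its start and 2 regions of 1 library each.

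Neighbouring parts of the pathway were called at a start in larger shares. These were 77.8% and 82.4% for the lists below, against 63.2% of the 38 genes and 46.4% of all protein-coding genes. Of 18 genes of glycosphingolipid assembly and lysosomal breakdown, 14 were called at a start in all libraries, and St8sia1, A4galt, B3galnt1 and Gal3st1 were not. The lysosomal sialidase Neu1 had a median percentile of 94.8. Of 17 matched genes for transport, receptors and related steps, 14 were called, with Plekha8, Mfsd2b and S1pr5 outside. Cert1, listed as Col4a3bp, which carries ceramide from the ER to the Golgi, had a median of 98.8, and Arv1 and Aldh3a2 had 97.1 and 96.5. Receptors for sphingosine 1-phosphate ranked lower, at 45.4 for S1pr1, 54.8 for S1pr2, 15.3 for S1pr3 and 19.7 for S1pr4, and the exporter Spns2 stood at 47.2. Regions called in all libraries made up 34% of 147 regions of the first list and 32.5% of 126 of the second, against 25.1% of all regions. Regions called in all 3 Tunicamycin and no DMSO libraries numbered 2 of the 147 and 1 of the 126, against 0.683% of all regions.

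Starts called in every library were rich in CpG. RefSeq starts were matched for 36 of the 38 genes, 51 starts in all, against 21255 protein-coding starts. In the 250 bases before the start, the 26 starts with a region in all libraries had a median G+C content of 66.0% and 19.5 CpG. The 16 starts without a region had medians of 51.8% and 4 CpG, and the 9 called in 1 to 5 libraries had 58.0% and 12. The same order held over all genes, with medians of 60.8% and 17 CpG for 9818 starts called in all libraries and 46.8% and 2 for 7863 without a call. Single genes went against it. Cerk was called in all libraries with 7 CpG, as its sequence above shows, and a Sgms2 start with 36, the Sgpp2 start with 24 and the Ugt8a start with 32 were called in none, none and 1.

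**Figure D4:**
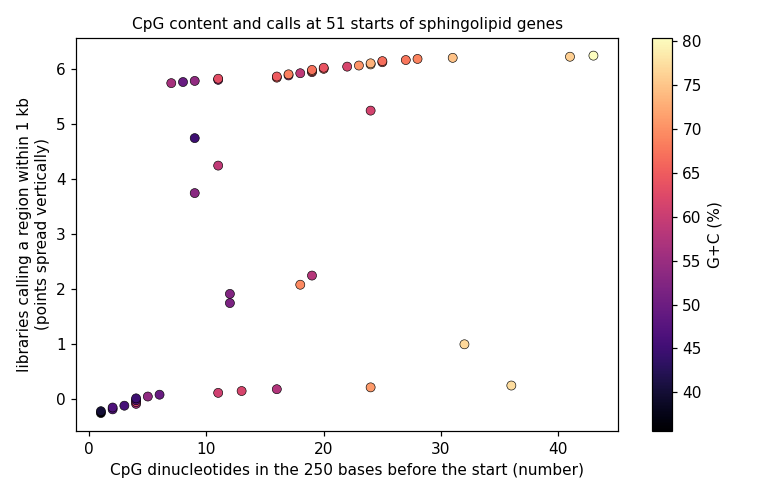
Number of CpG in the 250 bases before each of 51 RefSeq starts (horizontal axis) against the number of libraries that called a region within 1 kb of it (vertical axis, 0 to 6), with points coloured by G+C percent. Starts called in all 6 libraries have 7 to 43 CpG, and starts without a call 1 to 36.

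Motif matches are given on both strands as letters in this window, and they do not show binding. GGGCGG, the GC box, occurred at 22 of the 26 starts called in all libraries (84.6%; 62.5% of all such starts) and at 3 of 16 without a call (18.8%; 14.9%). CCAAT occurred at 10 of the 26 (38.5%; 37.4%), with 5 matches in the Ormdl2 sequence above, and CCGGAA, an ETS core, at 8 (30.8%; 25.2%). CACGTG, the E-box, occurred at 4 (15.4%; 9.09%). TGACTCA, the AP-1 site, occurred at 1 of the 26 (3.85%; 2.45%) and at 5 of 16 without a call (31.2%; 5.89%). Of those 5, 2 were starts of Sgms2, and Sphk1, Asah2 and Acer3 had 1 each. The 16 starts came from 10 genes and are not independent. The Sphk1 window overlaps that of another Sphk1 start, called in 2 libraries, which also holds 1 match. Acer3 was called in all libraries at its other start. AGATAA, which GATA factors bind, occurred at 0 of the 26 (5.1% of all such starts). The ER stress motifs TGACGTGG, TGATGNAAT and the ER stress response element (CCAAT and CCACG, 9 bases apart) were found at 0 of the 51 starts, against 0.593%, 0.663% and 0.132% of all starts. The last of these contains CCAAT.

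Of the 231 regions, 76 (32.9%) were called in all 6 libraries, against 25.1% of all regions. Within 1 kb of a start or end of any protein-coding gene, 44 of 63 were (69.8%; 59.2% of all such regions), and elsewhere 32 of 168 (19%; 16.9%). Another 66 (28.6%; 32.4%) were called in 1 library, of which 28 were called in DMSO 1, as were 10292 of the 26871 single-library regions overall. A pattern of all libraries except DMSO 3 was met in 19 (8.23%; 8.27%), and of the 3 Tunicamycin libraries with DMSO 1 in 8 (3.46%; 4.39%). The last 2 shares lie near the background.

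A region called in 3 of 3 Tunicamycin and 0 of 3 DMSO libraries was termed tunicamycin-only. The set held 2 such regions (0.866%) against 0.683% of all regions, and 0 of the opposite kind against 0.0976%. The first (chr12:87299481-87300592) lies 4466 bp outside Sptlc2 and covers the start of Ism2, a gene for a secreted protein, shown above. Its percentiles were 20.5, 32.4 and 33.7 in Tunicamycin 1, 2 and 3, with fold enrichments of 4.14, 4.59 and 4.8. The second (chr15:86159746-86160177) lies inside Cerk, 26 kb from the start, at 5.6, 41.5 and 18.1 with fold enrichments of 3.43, 4.98 and 4.11. Both were thus below the middle of their lists in each library that called them. With peaks of a q-value of at most 1e-05 the set held 0 tunicamycin-only regions (0.722% of all regions). Without DMSO 1 it held 10 (5.77%), without DMSO 2 it held 4 (0.956%), without Tunicamycin 1 8 (2.23%) and without Tunicamycin 3 4 (1.54%). When every list was limited to the length of the shortest, the set held 2 again, but both were other regions, of Sgms1 (chr19:32304042-32304438 and chr19:32406766-32407440), against 0.79%.

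To compare heights between groups, each library was ranked over the same 20810 regions called in all 6, here termed the common percentile. Of the 76 sphingolipid regions, 6 (7.89%) had common percentiles that did not overlap between the groups, against 9.21% of all 20810. They were 3 higher after Tunicamycin (3.95%; 4.66%) and 3 lower (3.95%; 4.55%). Ranked among all peaks of each list, which differ in length, 5 of the 76 did not overlap, against 9.01% of all 20810. Of these, 5 were higher and 0 lower. The share by direction over all regions was not computed on this scale, so this split is not read as a result about the sphingolipid genes. The median difference, Tunicamycin minus DMSO, was 0.31 percentile points for the 76 regions and -0.30 for all, and 40 of the 76 were above 0 (52.6%; 48.4%). A two-sided exact permutation test of 3 against 3 libraries has 20 splits and cannot give a p below 0.10, and Benjamini-Hochberg adjustment over the 20810 regions gave adjusted p = 1 for each, so 0 regions passed at 0.05 with or without adjustment. The values that follow are therefore a description.

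**Figure D5:**
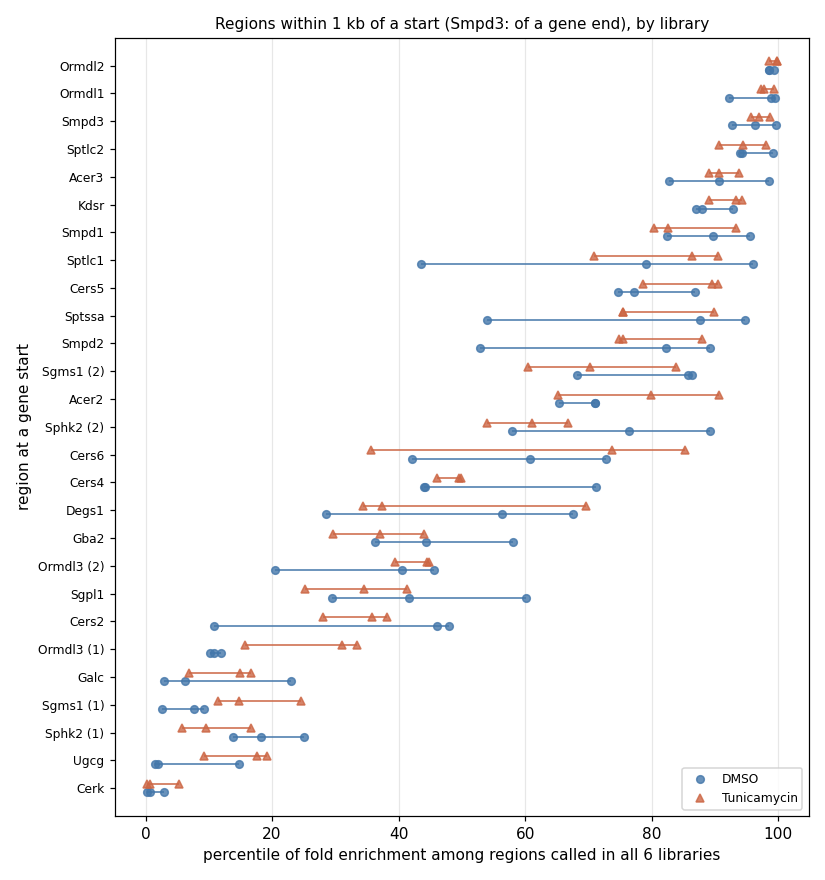
Common percentile (rank of fold enrichment among the 20810 regions called in all libraries, horizontal axis) at the 27 start or gene end regions called in all 6 libraries, with DMSO libraries as blue circles, Tunicamycin libraries as orange triangles and lines for each group's range. The ranges are separate at the lower-ranked Ormdl3 region and the lower-ranked Sgms1 region and overlap at the other starts.

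Of the 6 regions that did not overlap, the largest difference of means was at Ormdl3, in a region 0.839 kb upstream of the start (chr11:98588084-98588644). Its common percentiles were 10.2, 11.9 and 10.9 in DMSO and 33.5, 31.1 and 15.7 in Tunicamycin. The means were 11.0 ± 0.9 (SD, n = 3) and 26.8 ± 9.7 (SD, n = 3), a difference of 15.8 points (exact permutation p = 0.10). Tunicamycin 3 lay closer to the DMSO libraries than to the other two. Without DMSO 1 or Tunicamycin 1 the difference was larger near Cers5 (-16.1 and -19.5 points) than here (15.4 and 12.8). The region over the Ormdl3 start itself, 20.5, 40.5 and 45.6 in DMSO and 44.8, 39.4 and 44.5 in Tunicamycin, overlapped. Larger differences occurred at regions where the groups overlapped, such as 24.8 points near Ormdl1, 24.4 inside Sptlc1 and -17.8 near Asah1.

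At the upstream starts of Sgms1 the common percentiles were 9.3, 7.7 and 2.6 in DMSO and 11.5, 14.8 and 24.5 in Tunicamycin. The means were 6.5 ± 3.5 (SD, n = 3) and 16.9 ± 6.8 (SD, n = 3), a difference of 10.4 points (exact permutation p = 0.10). The most downstream start differed by -8.5 points with overlapping groups, from a mean of 80.1 ± 10.3 in DMSO to 71.5 ± 11.8 in Tunicamycin (SD, n = 3 each; exact permutation p = 0.40). The Ugcg start stood at 1.5, 2.0 and 14.8 in DMSO and 19.2, 17.7 and 9.2 in Tunicamycin, and the groups overlapped through DMSO 3 and Tunicamycin 3.

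The other 4 separated regions lay outside the sphingolipid genes. Near Smpd2, a region at the start of Mical1 (chr10:41477094-41478145) stood at 6.2, 2.7 and 4.8 in DMSO and 14.4, 10.7 and 11.8 in Tunicamycin, a difference of 7.7 points. A second region near Smpd2 (chr10:41473790-41474465) stood at 8.1, 3.9 and 7.3 in DMSO and 2.4, 3.5 and 2.9 in Tunicamycin, a difference of -3.5. These neighbours thus had opposite signs. Near Cers5, a region within 1 kb of a start or gene end of Cox14 and of Gpd1 (chr15:99725286-99726192) stood at 81.6, 81.7 and 89.4 in DMSO and 79.4, 65.7 and 63.1 in Tunicamycin, a difference of -14.8. Near Acer1, the Alkbh7 start (chr17:56996979-56997783) stood at 98.2, 98.8 and 98.5 in DMSO and 95.2, 97.5 and 96.1 in Tunicamycin, a difference of -2.2. The exact permutation p was 0.10 for each of the 4, the smallest possible. When peaks were ranked among all peaks of a list instead, the Ormdl3 region and the Mical1 start stayed separate, and the other 4 regions overlapped with differences of the same sign.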

How the data were processed

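ATAC-seq libraries of sorted HSCs, 3 from DMSO and 3 from Tunicamycin mice as the labels' treatment field states, were each used as 1 peak list, so the authors had called peaks separately in each library. Per the submitters' processing notes the build was mm10 and the tools were MACS2, Picard, featureCounts, Bowtie2 2.2.9 and Trim Galore 0.4.4, with no role or setting. Not given in the sources used here are the read filters, the calling threshold and any shift of read ends for the transposase. Each peak carried, as deposited by the authors, a display score, a −log10 p-value, a −log10 q-value and the fold enrichment, which is a ratio to background. The fold enrichment was used to rank peaks within a list. The q-value entered alternatives alone, and the p-value and score were not used.

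Per library, 109 to 138 peaks on other sequences were left out, and no interval stood in a list in duplicate. Where a library had several peaks in a region, the highest fold enrichment was taken. Gene spans came from RefSeq for GRCm38.p6, and starts from a RefSeq promoter table that lacks 4395 of the 21887 protein-coding genes, for which either gene end was used. Of the promoter entries, 8 with unread bases were left out. No genome sequence was used, so region sequences are not shown. Two-sided exact permutation tests compared common percentiles between groups, with Benjamini-Hochberg adjustment over all 20810 regions called in all libraries, and the procedure was tested on simulated data. Described in full were the region nearest each start, regions called in all libraries of 1 group and none of the other, up to 10 regions whose common percentiles did not overlap, the 10 regions of highest median percentile and genes without a region. The internal Asah1 and Sgms1 regions and other examples outside this rule were chosen after their values were seen. The genes and lists were chosen with earlier results of these data known. Alternatives were a q-value of at most 1e-05, lists of 1 length, other distances, 50% cover, windows of 250 bp to each side of summits, other ranks, omission of each library and pairing of libraries by number. Leaving out regions at other genes' starts was added after seeing the data. Computation used bedtools 2.31.1 and Python 3.11.15 with matplotlib 3.10.9, SciPy 1.17.1, pandas 2.3.3 and NumPy 2.4.6, and bedtools gave the same 82993 regions.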

Additional observations from a re-analysis of the deposited data

How the results depend on the processing

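The count of sphingolipid genes called at a start in all libraries was 24 (46.4% of all genes). It was 22 with a q-value of at most 1e-05 (43.5% of all genes) and 22 with lists of 1 length (43.3%). It was 24 within 500 bp of a start (45.2%) and 24 within 2 kb (48.1%). With 50% cover it was 16 (30.5%), and with a library left out 24 to 25 (46.4% to 51.1%). Regions called in all libraries numbered 76 of 231, and 42 of 141 inside genes, 49 of 164 within 5 kb and 117 of 360 within 50 kb. The share of all regions was 25.1% for each of these. They numbered 45 with 50% cover (14.7% of all regions) and 76 to 95 with a library left out (26.2% to 34.3% of all regions). Without regions at other genes' starts they numbered 53 of 201 (26.4%), against 25.1% of all regions, from which such regions were not left out. Tunicamycin-only regions numbered 2 (0.683% of all regions), and 0 with a q-value of at most 1e-05 (0.722%). They numbered 1 inside genes and 1 without regions at other genes' starts, each against the same 0.683% of all regions. With a library left out they numbered 2 to 10 (0.821% to 5.77%). DMSO-only regions numbered 0 (0.0976% of all regions), and 1 with summit windows, at Cers6 (0.118%). With a library left out they numbered 0 to 2 (0.156% to 0.929%). Non-overlapping common percentiles numbered 6 (9.21% of all regions). They numbered 5 among all peaks of the file (9.01%; 2 of the 6 shared), 8 by −log10 q (10.7%; 4 shared) and 7 by the mean of the peaks (9.31%; 6 shared). With a library left out they numbered 12 to 20, where fewer libraries make a separation easier (16.5% to 28.7% of all regions). Taking same-numbered libraries as pairs in a replicate block gave 15 (22.4% of all regions). Deviations of same-numbered libraries correlated at -0.10, -0.02 and 0.02, and those of differently numbered libraries at -0.09 to 0.11. No pairing by number was visible, which does not show that there was none. Over the alternatives run for the named regions, 69 values kept their direction and their side of the criterion, 11 no longer met it, and 0 reversed. Of the 11, 2 were the tunicamycin-only regions with lists of 1 length, which then were called in no library. For the other counts that moved the cause was not tested. Read depth is unknown, so a missing call sets no upper limit on accessibility.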
